A study of Mus musculus with 16 samples.

Results

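Interferon-stimulated antiviral genes were followed in mice carrying the nm3342 mutation and in wild types, at 2 ages, in retina plus its pigment epithelium (RPE). The group was defined as 37 listed genes, and its members were taken as all non-control probes whose RefSeq accession belongs to one of them. Of the 37 genes, 35 had a probe and all 35 were tested among 19022 genes in all. They had 45 of the 55681 probes, and all 45 passed the filter on dim probes (4 or more of the 16 arrays well above background). The 2 others, Mx1 and Mx2, matched no probe by accession, are listed as transcribed pseudogenes in the gene table used, and have no value here.

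The series holds 16 single-colour Agilent arrays in 4 groups of 4 samples: mutants at 1 month (P30), wild types at 1 month, mutants at 1 year (P365) and wild types at 1 year. All are labelled as male on a C57Bl/6J background, and in the labels nm3342 is what sets the mutants apart. Which gene it hits is not given in the labels, and the genotypes could therefore not be checked by a targeted gene. The series presents the nm3342 mouse as a possible model of serous retinal detachment, the lifting of the retina by fluid. The RPE isomerase gene Rpe65 was well above background on all 16 arrays, as a check of the labelled tissue. In such bulk tissue, a higher proportion of cells of a type and more RNA per cell cannot be told apart, nor can RNA of the retina be told from that of the RPE. The labels give 4 mice per time point without tying each sample to its own animal, so p-values measure only the spread between these samples, which may in part be technical.

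Interferons are secreted proteins that act on receptors of neighbouring cells, where Janus kinases phosphorylate STAT proteins. Type I and type III interferons lead to a complex with Stat2 and Irf9 that binds the interferon-stimulated response element (ISRE) of target promoters, whereas interferon gamma acts through the gamma-activated sequence (GAS). The target genes encode sensors of foreign RNA, enzymes that degrade RNA or stop translation, membrane proteins that block the entry or release of virus, and feedback regulators. In the retina they are known to be induced in glia and neurons during infection, injury and inflammation.

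The promoters are shown first, as background on the genes. The genes were listed as interferon-stimulated, and interferons act through the ISRE and GAS. A higher share of these motifs among them therefore follows in part from the choice of the genes and is no result of these arrays. Of the 37 genes, 28 had a promoter in the RefSeq table (build GRCm38.p6), and the 250 bases before each transcription start were searched on both strands. The ISRE core was spelled GAAANNGAAA and the GAS was spelled TTCNNNGAA, and matches of the 2 motifs may overlap. The ISRE core was present in 9 of the 28 genes (32.1%), against 3.46% of 27025 genes with a promoter in the table. These 9 are Bst2, Ifit1, Ifit3, Ifitm2, Isg15, Oas1a, Oas3, Rsad2 and Stat2. The GAS was present in 6 of the 28 (21.4%), against 8.13% of all, and the GAS of Bst2 overlapped its ISRE. The stretches printed are those of genes whose expression is described later, with the core, or its reverse complement, in capitals and read 5′ to 3′ on the strand of the gene. Bst2 (chr8:71537562-71537627, minus strand) and Oas1a (chr5:120907526-120907570, minus strand) are the 2 genes with a core that rose in the 1-month mutants. Isg15 (chr4:156200850-156200921, minus strand) has 3 overlapping cores, Ifit3 (chr19:34583348-34583441, plus strand) has 2 separate cores, and Rsad2 (chr12:26456538-26456597, minus strand) has 1.
Bst2: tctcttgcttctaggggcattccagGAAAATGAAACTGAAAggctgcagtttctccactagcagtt
Oas1a: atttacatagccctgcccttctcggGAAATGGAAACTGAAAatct
Isg15: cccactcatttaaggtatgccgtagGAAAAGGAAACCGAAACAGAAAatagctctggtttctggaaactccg
Ifit3: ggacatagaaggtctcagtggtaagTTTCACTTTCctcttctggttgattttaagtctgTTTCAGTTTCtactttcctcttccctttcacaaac
Rsad2: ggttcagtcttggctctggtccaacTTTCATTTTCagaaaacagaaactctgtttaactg

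A match is a string of letters and not a measured binding site. Members with and without a core had close medians. The median log2 difference between 1-month mutants and wild types was 0.62 for the 9 genes with a core (2 of them higher at an adjusted p under 0.05) and 0.61 for the 19 without (6 higher).

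Levels are log2 intensities relative to the 75th percentile of the array, so that 0 is that percentile, and differences are log2 differences. The threshold for a call was 0.05 in two-sided limma p-values, adjusted by Benjamini-Hochberg for the 19022 genes. Errors beside a difference are standard errors of the model and errors beside a mean are SDs, n = 4 throughout. Between 82.1% and 89.6% of the spots of an array were well above background, and the number of arrays limits the precision. On 3 arrays (1-month mutant replicates 2 and 3 and 1-year mutant replicate 1) the expression of sex-linked genes went against the male label. No wild-type array did so, and this pattern therefore goes in part with genotype. Within their groups, 1-month mutant replicate 4 held the highest level of 30 of the 35 members and 1-year wild-type replicate 1 that of 31, so results that rest on these arrays are given with and without them.

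**Figure D1:**
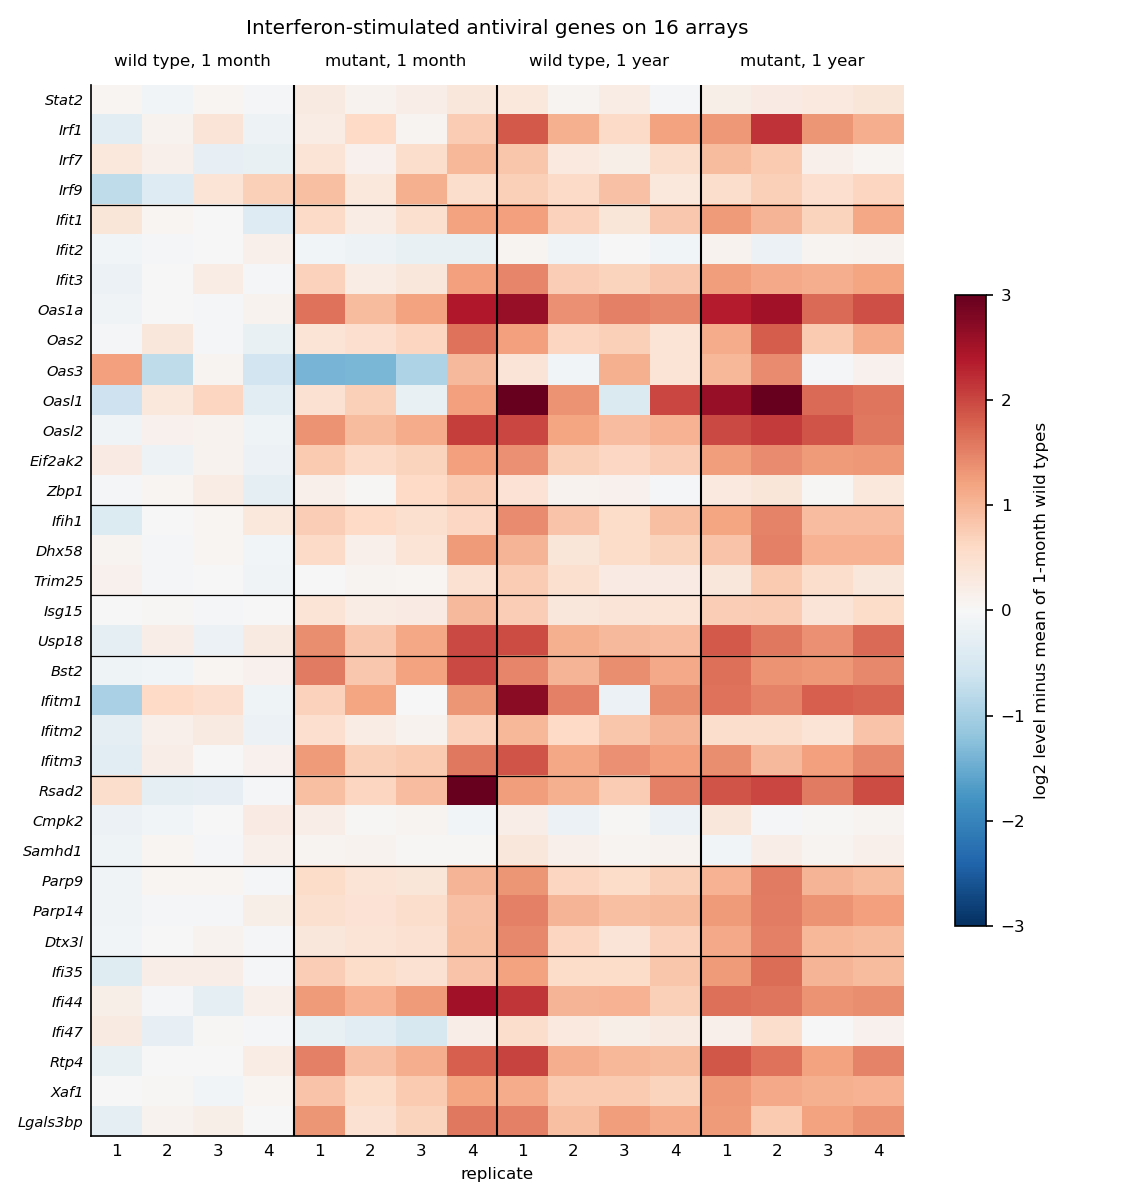
Each of the 35 members (rows, in the order of their roles, which lines separate) on each of the 16 arrays (columns, by group and replicate), coloured by the log2 level minus the mean of the 4 1-month wild types, with colours capped at 3 in each direction. Within their groups, 1-month mutant replicate 4 was highest for 30 of the 35 members and 1-year wild-type replicate 1 for 31.

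The first comparison asks whether antiviral levels differed in young mutants, at 1 month. Of the 35 members, 11 were higher in the mutant and 0 lower (0 also at an unadjusted p under 0.05), where 1.98% of all genes were called higher and 0.689% lower. They include the virus tether Bst2 (2.61-fold), the oligoadenylate synthetase Oas1a (2.92-fold), the Isg15 protease Usp18 (2.52-fold) and the entry inhibitor Ifitm3 (2.13-fold). The median difference of the members was 0.61, against 0.02 for all genes, and 32 of 35 differences were positive, against 53.9% of all genes. All 4 mutant arrays lay above all 4 wild-type arrays for 20 members, against 5.81% of all genes. The differences of the 35 ran from -0.67 (Oas3) to 1.55 (Oas1a), and 26 had an unadjusted p under 0.05 in the higher direction, against 9.38% of all genes.

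**Figure D2:**
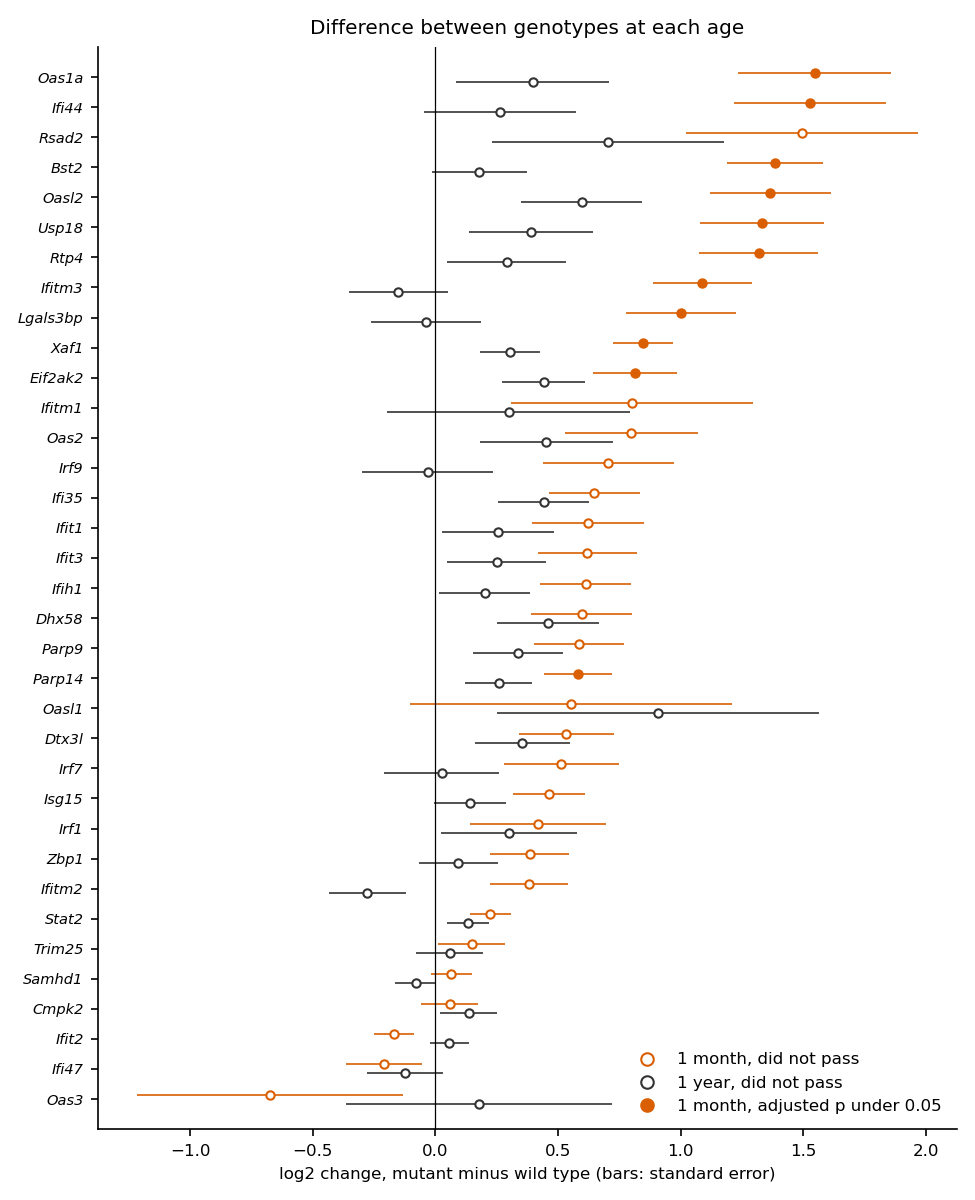
Log2 difference between mutant and wild type (horizontal axis) of each of the 35 members at 1 month (orange) and at 1 year (black), with standard errors as bars and filled points for members called at an adjusted p under 0.05. The 11 filled points are all at 1 month and to the right of 0, and no member was called at 1 year.

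The smallest adjusted p of the group belonged to a membrane protein, and 2 of the 4 membrane proteins rose. Bst2, or tetherin, holds budding virus particles at the cell surface, and its level, in the order of the replicates, was 1.55, 0.78, 1.18 and 1.97 in the 1-month mutants and -0.13, -0.08, 0.04 and 0.12 in the wild types. Every mutant array lay above every wild-type array, and mutant replicate 2 came closest to them. The difference was 1.38 ± 0.19 (adjusted p = 0.00162). Ifitm3, which blocks the fusion of virus with endosomes, was at 1.56, 1.01, 1.07 and 1.86 in the mutants and at -0.04, 0.48, 0.30 and 0.41 in the wild types, a rise of 1.09 ± 0.20 (adjusted p = 0.0117) with no overlap. Its relatives Ifitm1 (0.80 ± 0.49, adjusted p = 0.477) and Ifitm2 (0.38 ± 0.16, adjusted p = 0.263) did not pass, and the groups overlapped for both.

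Among the effectors that bind or sense RNA and other nucleic acids, 3 of 10 rose. Oas1a makes the oligoadenylates that activate RNase L, and its level was -0.78, -1.45, -1.19 and 0.00 on the mutant arrays and -2.50, -2.39, -2.43 and -2.29 on the wild-type arrays. The wild types lay within a narrow range, all below the mutants, of which replicate 4 was the highest (1.55 ± 0.31, adjusted p = 0.0168). Oasl2, a related synthetase, was at 0.77, 0.37, 0.53 and 1.50 in the mutants and at -0.68, -0.45, -0.46 and -0.71 in the wild types (1.37 ± 0.25, adjusted p = 0.0101). Again no mutant array overlapped the wild types. Eif2ak2 encodes PKR, a kinase that stops translation when it binds double-stranded RNA, and rose by 0.81 ± 0.17 (adjusted p = 0.0205).

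The other 7 effectors did not pass. Oas2 was at 0.80 ± 0.27 (adjusted p = 0.163), the RNA-binding proteins Ifit1 and Ifit3 were both at 0.62 (adjusted p = 0.197 and 0.147), Oasl1, which limits the translation of Irf7, was at 0.55 ± 0.66, and the Z-nucleic acid sensor Zbp1 at 0.39 ± 0.16. Ifit2 was at -0.17 ± 0.08 (adjusted p = 0.347). Oas3 was at -0.67 ± 0.54 (adjusted p = 0.612), and it is the dimmest member: it was well above background on 1 of 4 mutant and 2 of 4 wild-type arrays at 1 month.

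The proteins that sense viral RNA in the cytoplasm, Ifih1 (MDA5) and Dhx58 (LGP2), and Trim25, a ubiquitin ligase of that pathway, gave no call. Ifih1 was at -1.19, -1.35, -1.45 and -1.33 on the mutant arrays and at -2.35, -1.93, -1.87 and -1.62 on the wild-type arrays. The groups did not overlap, and wild-type replicate 4 came closest to the mutants (0.61 ± 0.19, adjusted p = 0.113). Dhx58 was at 0.60 ± 0.21 (adjusted p = 0.170) without overlap and Trim25 at 0.15 ± 0.14 (adjusted p = 0.666) with overlap.

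In the ubiquitin-like modifier system, Usp18, which removes Isg15 from proteins and dampens the interferon receptor, stood at -1.27, -1.85, -1.50 and -0.68 in the mutants and at -2.94, -2.45, -2.84 and -2.40 in the wild types. All mutant arrays were higher, with replicate 2 nearest to the wild types (1.33 ± 0.25, adjusted p = 0.0136). Isg15, the modifier itself, was at 1.69, 1.53, 1.55 and 2.26 in the mutants and at 1.29, 1.33, 1.26 and 1.30 in the wild types. These did not overlap either, but the difference of 0.46 ± 0.15 did not pass (adjusted p = 0.134). The second Isg15 probe was at 0.78 ± 0.22 (adjusted p = 0.118 over all probes).

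Rsad2, or viperin, converts CTP into a nucleotide that stops viral RNA synthesis, and 1 array stood apart from the rest. Its level was -3.02, -3.27, -3.00 and -0.40 in the mutants and -3.38, -4.18, -4.16 and -3.95 in the wild types. The mutants were all higher, but replicate 4 lay far above the other 3, and the difference of 1.50 ± 0.47 did not pass (adjusted p = 0.132). Without that array it was 0.82 and passed (adjusted p = 0.0377). Cmpk2, a mitochondrial nucleotide kinase, was at 0.06 ± 0.12 and Samhd1, which degrades deoxynucleotides, at 0.07 ± 0.08, the smallest differences of the group.

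In the ADP-ribosylation complex 1 of 3 members rose. Parp14, a mono-ADP-ribosyltransferase, was at -0.88, -0.94, -0.85 and -0.49 in the mutants and at -1.48, -1.42, -1.40 and -1.19 in the wild types. It rose by 0.58 ± 0.14 without overlap (adjusted p = 0.0381). Parp9 (0.59 ± 0.18, adjusted p = 0.123) and its partner ubiquitin ligase Dtx3l (0.53 ± 0.19, adjusted p = 0.197) did not pass, also without overlap.

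Of the 6 other interferon-stimulated proteins 4 rose. Xaf1, an antagonist of the apoptosis inhibitor XIAP, was at -0.72, -1.02, -0.80 and -0.41 in the mutants and at -1.59, -1.55, -1.66 and -1.52 in the wild types, a rise of 0.85 ± 0.12 (adjusted p = 0.00205). The wild types were within a narrow band below all mutants. Rtp4, a chaperone of receptors that also limits viral replication, was at 0.74, 0.10, 0.31 and 1.01 in the mutants and at -1.01, -0.76, -0.78 and -0.55 in the wild types (1.32 ± 0.24, adjusted p = 0.0115). Ifi44, whose biochemical role is not well known, was at -3.76, -3.99, -3.77 and -2.54 in the mutants and at -4.88, -5.10, -5.32 and -4.89 in the wild types (1.53 ± 0.31, adjusted p = 0.0172). For both genes the groups were separate, and mutant replicate 4 was the highest. Lgals3bp, the secreted galectin-3-binding protein, rose by 1.00 ± 0.22 (adjusted p = 0.0298). Ifi35 (0.65 ± 0.19, adjusted p = 0.0910) and the GTPase Ifi47 (-0.21 ± 0.16, adjusted p = 0.575) did not pass.

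The 4 transcription factors of the response gave no call. Stat2 was at 1.36, 1.20, 1.30 and 1.43 in the mutants and at 1.16, 1.02, 1.16 and 1.05 in the wild types. The groups were separate by a small margin, and the difference was 0.22 ± 0.09 (adjusted p = 0.217). Irf9, the DNA-binding partner of Stat2, was at 0.71 ± 0.27 (adjusted p = 0.217), Irf7, which amplifies interferon production, at 0.51 ± 0.23 (adjusted p = 0.317) and Irf1, a factor induced by interferon gamma, at 0.42 ± 0.28 (adjusted p = 0.515).

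**Figure D3:**
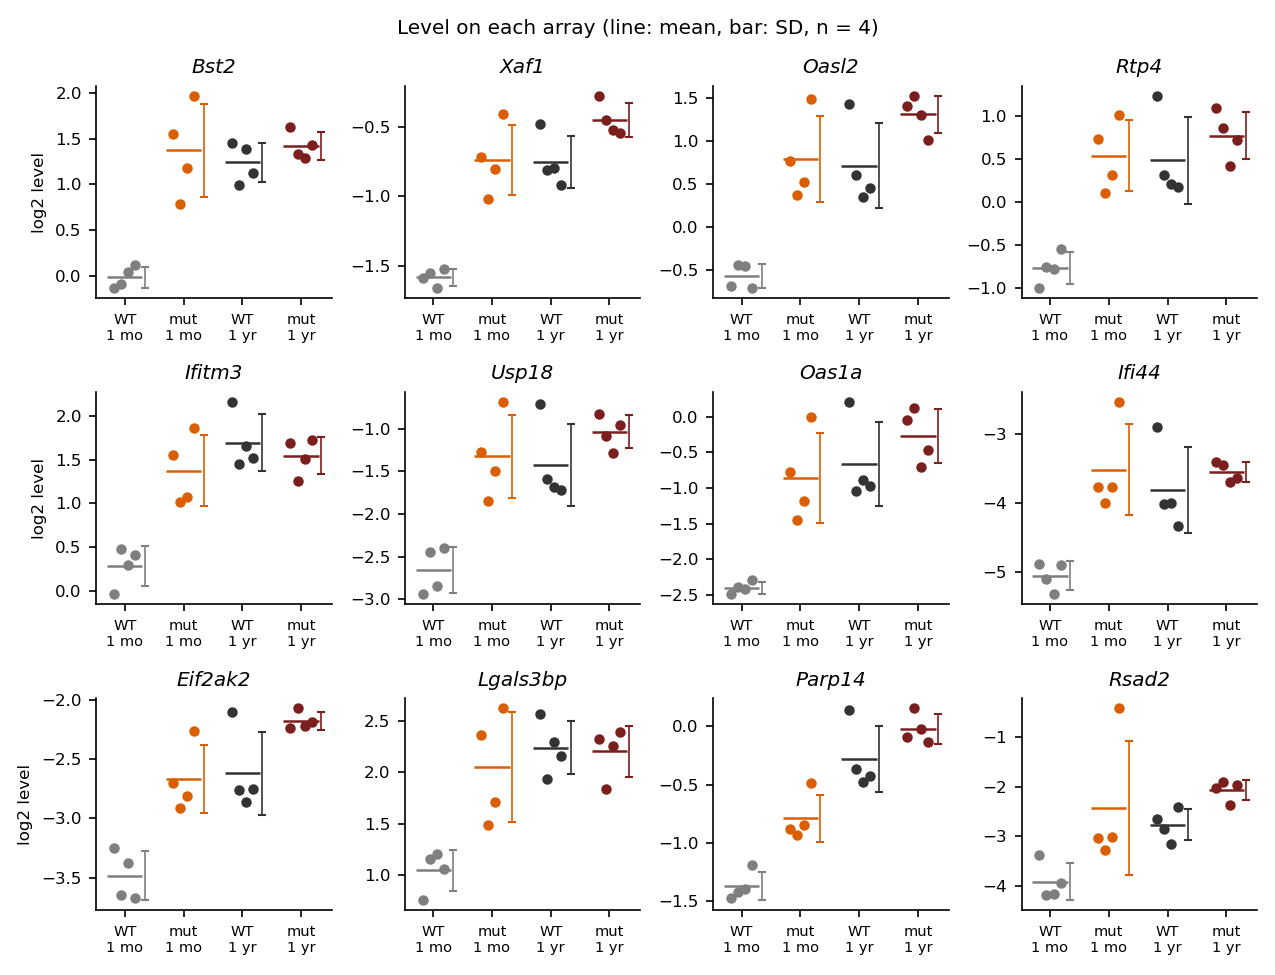
Log2 level (vertical axes, which differ between panels) on each array for the 11 members called at 1 month, in the order of their adjusted p, and for Rsad2, with group means as lines and SDs as bars (n = 4). In each panel the 4 1-month wild-type arrays lie below the 4 1-month mutant arrays, and the highest 1-month mutant array is replicate 4.

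Without mutant replicate 4 the count at 1 month was again 11, with a median of 0.44, but Parp14 was no longer called (adjusted p = 0.0547) and Rsad2 was. Without mutant replicate 1 the count was 7, and 6 of the 11 (Bst2, Ifitm3, Oasl2, Rtp4, Usp18 and Xaf1) held in every fit without 1 of the 16 arrays, while Parp14 was called in 5 of those 16 fits. A fit on the 8 arrays of the 1-month groups alone called 4 (Bst2, Oasl2, Rtp4 and Xaf1). Without the 3 arrays whose sex-linked genes went against the label, 3 of the 11 no longer passed, and 0 other members did. With the sex-linked pattern as a covariate 1 of the 11 no longer passed. The scanner files place the arrays on 2 slides with 2 arrays of each group on each, and the member median was 0.80 within slide 1 (32 of 35 positive) and 0.43 within slide 2 (30 of 35 positive). With 2 arrays per group neither slide alone gave a call.

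At the level of probes, 10 of the 45 were called higher at 1 month, against 0.762% of all 49230 probes, and 0 lower, against 0.313%. At 1 year 0 of the 45 were called, against 0.274% higher and 0.126% lower. Without 1 of the 16 arrays the count of probes ran from 2 to 12. Both probes of Oas1a passed (1.55 and 1.36), and both of Lgals3bp were close to the threshold (1.00 and 0.86, adjusted p = 0.0501 and 0.0504 over all probes). Probes of 1 gene were not always alike. The dimmer probe of Xaf1 was at 0.20 against 0.85, that of Ifih1 at -0.19 against 0.61, and that of Irf1 at -0.52 against 0.42. Cmpk2 had 0.06 and 0.31, Dtx3l 0.53 and 0.12, Samhd1 0.07 and 0.05, and Zbp1 0.39 and 0.58. Oas1a, Ifit1, Ifit3 and the Ifitm genes have closely related neighbours, and whether their RNA also binds these probes was not tested.

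Genes upstream of the antiviral genes were described in 3 lists. Of the 10 tested interferon genes 0 were called at 1 month (1 at an unadjusted p under 0.05), with a median of -0.12, and Ifnb1 was at -0.03 ± 0.19 with 2 of 4 arrays well above background in either genotype. Of the 15 receptor and signalling genes 2 rose (4 at an unadjusted p under 0.05, median 0.12), among them Ptpn6 (0.79 ± 0.17, adjusted p = 0.0260), a phosphatase of blood cells that restrains Janus kinase signalling. The receptor genes Ifnar1 (-0.05) and Ifnar2 (0.22) did not pass. Of the 19 genes of nucleic acid sensing and interferon induction 0 were called (6 at an unadjusted p under 0.05, median 0.09), with Cgas at -0.21 and Sting1 at 0.48 (adjusted p = 0.0806).

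Other genes known to respond to interferon were higher in the 1-month mutants as well. Of the 13 interferon-inducible GTPases, which attack vacuoles of intracellular microbes, 6 rose (median 0.67), among them Gbp3 (2.01 ± 0.24, adjusted p = 0.000382), Gbp4 (0.97), Gbp2 (0.96), Irgm2 (0.84), Gbp7 (0.71) and Irgm1 (0.67). Of the 16 MHC class I presentation genes 6 rose (median 0.50), among them B2m (0.82 ± 0.15, adjusted p = 0.0115), the proteasome subunits Psmb9 (0.72) and Psmb10 (0.40), and the class I genes H2-K1 (0.58), H2-D1 (0.54) and H2-Q7 (0.50), whose sequences are closely related. In a list of 44 further interferon-stimulated genes 7 rose and 1 fell (median 0.30). The chemokine Cxcl10 was at 1.72 ± 0.35 (adjusted p = 0.0177), Ifi27l2a at 1.64, Ifi27 at 1.22, Trim30a at 1.01 and Parp10 at 0.78, while Pnpt1, a mitochondrial exoribonuclease, fell by 0.97 ± 0.09 (adjusted p = 7.87e-05).

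Markers of other cells differed between the same 1-month groups. Of 18 microglia and macrophage markers 6 rose (median 0.39), including Aif1 (1.03 ± 0.13), Csf1r (0.73 ± 0.09), Adgre1 (1.09), Laptm5 (0.86), C1qc (0.57) and C1qa (0.55). All 18 were well above background on all 16 arrays, and their summed linear level ran from 105 to 165 in the mutants and from 104 to 184 in the wild types at 1 month. At 1 year it ran from 124 to 166 in the mutants and from 137 to 165 in the wild types. Such a sum gives most weight to the brightest probes, and sums of different lists do not compare amounts of cells. Relative to the 1-month wild types, the median of these 18 ran from 0.26 to 0.56 on the 1-month mutant arrays. On the 1-month wild-type arrays it ran from -0.16 to 0.06, without overlap. Of 16 RPE and melanin markers 8 rose (median 0.55), with summed levels of 394 to 534 against 243 to 369. Rlbp1 was at 0.58, Slc45a2 at 1.07, Ttr at 0.72, Gpr143 at 0.86 and Pmel at 0.94, while Rpe65 was at -0.18 (adjusted p = 0.684). Of 11 neutrophil markers 2 rose, S100a8 (3.26 ± 0.71, well above background on 2 of 4 wild-type arrays) and S100a9 (3.02 ± 0.73). The list as a whole had a median of 0.11, with 6 of 11 differences positive and 1 lower at an unadjusted p under 0.05. Of 12 fibroblast and matrix markers 3 rose, Col3a1 (2.35 ± 0.21, adjusted p = 5.08e-05), Postn (1.78 ± 0.19, adjusted p = 0.000226) and Lum (1.17 ± 0.27, adjusted p = 0.0329), with a list median of 0.53 and no overlap between the groups for 5. The 12 were well above background on all 16 arrays, with summed levels of 438 to 528 against 330 to 424 at 1 month, and of 242 to 397 in the mutants against 290 to 443 in the wild types at 1 year. Their median relative to the 1-month wild types was 0.45, 0.68, 0.38 and 0.92 on mutant replicates 1 to 4, so that it was highest on replicate 4. Of 12 endothelial markers 1 rose, Kdr (0.68 ± 0.09, adjusted p = 0.00138), and of 12 rod markers 0 were called in limma, with 1 at an unadjusted p under 0.05 (median 0.08). The part of these cells in the difference of the antiviral genes was not tested.

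Of 18 markers of T, B, NK and plasmacytoid dendritic cells 0 were called at 1 month (3 at an unadjusted p under 0.05, median -0.14). Cd3d, a defining T cell gene, was well above background on 2 of 4 mutant and 0 of 4 wild-type arrays, and Cd3e was at -0.06. The summed level ran from 315 to 368 in the mutants and from 297 to 370 in the wild types, and 14 of the 18 were well above background on all 4 arrays of either group. None of the 5 erythrocyte genes was called, with 4 at an unadjusted p under 0.05, and their median was 2.36, with Hba-a1 at 2.13 and Hbb-bt at 2.88. Relative to the mean of the 1-month wild types, the erythrocyte median was 1.05, 1.83, 1.02 and 5.33 on mutant replicates 1 to 4. Replicate 4, the array with the highest antiviral levels of its group, thus also had the highest erythrocyte level, and whether the 2 are linked was not tested.

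**Figure D4:**
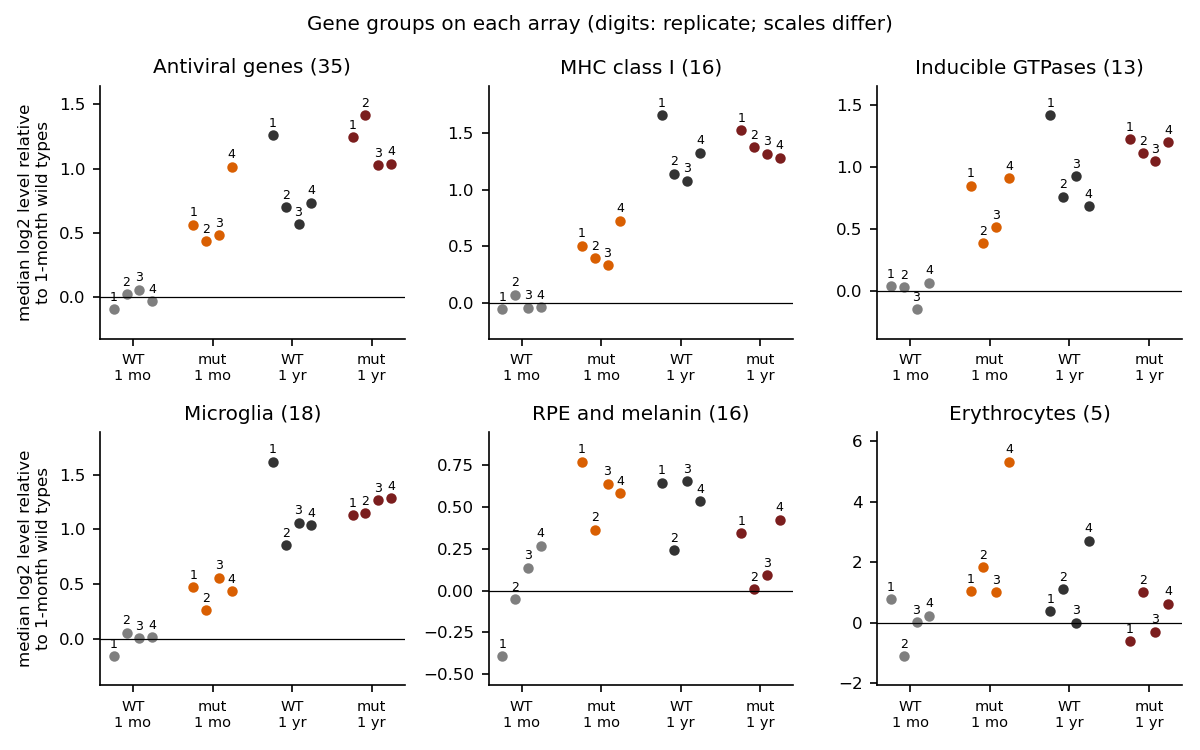
Median log2 level of the antiviral genes and of 5 other gene groups on each array, relative to the mean of the 1-month wild types (vertical axes differ between panels), with digits giving the replicate. The antiviral median is 1.02 on 1-month mutant replicate 4 and 1.26 on 1-year wild-type replicate 1, and 1-month mutant replicate 4 has the highest erythrocyte median.

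The genotypes were compared again at 1 year. None of the 35 members was called in limma, where 0.62% of all genes were called higher and 0.247% lower, and 5 had an unadjusted p under 0.05 in the higher direction, against 6.1% of all genes. These 5, chosen after their values were seen, are Oasl2 (0.60 ± 0.25, adjusted p = 0.357), Eif2ak2 (0.44 ± 0.17, adjusted p = 0.309), Dhx58 (0.46 ± 0.21, adjusted p = 0.416), Ifi35 (0.44 ± 0.19, adjusted p = 0.373) and Xaf1 (0.30 ± 0.12, adjusted p = 0.336). The median difference was 0.26, against -0.01 for all genes, and 29 of 35 differences were positive, against 47.4% of all genes. All 4 mutant arrays lay above all 4 wild-type arrays for 1 member, Rsad2, against 4.43% of all genes.

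The array values at 1 year show where the groups overlapped. Bst2 was at 1.63, 1.33, 1.29 and 1.43 in the mutants and at 1.45, 0.99, 1.39 and 1.12 in the wild types, so that wild-type replicates 1 and 3 lay within the mutant range. Its difference of 0.18 ± 0.19 (adjusted p = 0.794) had a 95% interval from -0.24 to 0.60. Oas1a was at -0.04, 0.13, -0.71 and -0.47 in the mutants and at 0.22, -1.04, -0.89 and -0.96 in the wild types. Wild-type replicate 1 was the highest of these 8 arrays, while the other 3 wild types were the lowest (0.40 ± 0.31, interval -0.27 to 1.07). Ifitm3 was at 1.69, 1.26, 1.51 and 1.72 in the mutants and at 2.16, 1.45, 1.65 and 1.52 in the wild types (-0.15 ± 0.20, adjusted p = 0.836), with the groups overlapping.

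Rsad2 was at -2.03, -1.91, -2.36 and -1.96 in the 1-year mutants and at -2.66, -2.85, -3.15 and -2.41 in the 1-year wild types. The groups were separate by a small margin, and the difference was 0.70 ± 0.47 (adjusted p = 0.645). Usp18 was at -0.82, -1.08, -1.28 and -0.96 in the mutants and at -0.70, -1.59, -1.69 and -1.72 in the wild types, and Xaf1 was at -0.27, -0.45, -0.52 and -0.55 in the mutants and at -0.48, -0.81, -0.80 and -0.92 in the wild types. For both, wild-type replicate 1 lay among or above the mutants and the other 3 wild types lay below them. Without wild-type replicate 1 the member median at 1 year was 0.40 and still 0 members passed. Within slides the median was 0.38 on slide 1, with 31 of 35 positive, and 0.09 on slide 2, which holds wild-type replicate 1, with 22 of 35 positive.

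Of the related lists at 1 year, the receptor and signalling genes Stat3 (0.56 ± 0.09, adjusted p = 0.00515) and Socs3 (0.61 ± 0.13, adjusted p = 0.0467), an inhibitor of Janus kinases, rose. Pnpt1 fell by 1.00 ± 0.09 (adjusted p = 3.82e-05), the only call among the 44 further interferon-stimulated genes. None of the 13 GTPases (median 0.07, smallest adjusted p = 0.0976) or of the 16 MHC class I genes (median 0.12, smallest adjusted p = 0.365) was called by limma, with 2 and 1 at an unadjusted p under 0.05. Of the 18 microglia and macrophage markers 1 rose, the receptor gene Cx3cr1 (0.89 ± 0.19, adjusted p = 0.0492). The median of that list was 0.05, with 11 of 18 positive. Of the 12 endothelial markers 1 rose, the receptor gene Kdr (0.71 ± 0.09, adjusted p = 0.0015), while the list median was -0.07, with 4 of 12 positive. Of the 12 rod markers 1 fell, the transducin subunit gene Gnat1 (-0.33 ± 0.06, adjusted p = 0.0252), while 11 had an unadjusted p under 0.05 in the lower direction (median -0.25) and 7 were lower in the mutants without overlap. Among all 19022 genes, 992 were lower at an unadjusted p under 0.05 and 650 were lower without overlap. Of the 16 RPE and melanin markers 0 were called in limma (smallest adjusted p = 0.1), with 8 lower at an unadjusted p under 0.05, a median of -0.41 and 5 lower without overlap. None of the 12 fibroblast and matrix markers was called in limma, with 1 at an unadjusted p under 0.05 (median -0.04). The part of these markers in the antiviral levels at 1 year was not tested.

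The test of the difference between the 2 genotype effects (1 year minus 1 month) called 0 of the 35 members, where 0.263% of all genes were called lower and 0.142% higher. The estimate was positive for 5 of 35, against 47.0% of all genes, with a median of -0.37 against -0.02 for all genes, and 10 had an unadjusted p under 0.05 in the negative direction, against 6.7% of all genes. Bst2 was at -1.21 ± 0.28 (adjusted p = 0.0752) and Ifitm3 at -1.24 ± 0.29 (adjusted p = 0.0793). Bst2 passed in 3 of the alternative fits, one of them without 1-month mutant replicate 2. In the related lists Gbp3 (-1.67 ± 0.33, adjusted p = 0.0475), Tgtp2 (-1.47 ± 0.28, adjusted p = 0.0352), B2m (-1.10 ± 0.21, adjusted p = 0.0387) and Adgre1 (-1.29 ± 0.24, adjusted p = 0.0328) passed this test. Markers of other cells had negative estimates as well. Of the 16 RPE and melanin markers 2 passed, Slc45a2 (-1.78 ± 0.30, adjusted p = 0.0204) and Tyrp1 (-1.58 ± 0.29, adjusted p = 0.0312), and 13 had an unadjusted p under 0.05 (median -0.74). Of the 12 fibroblast and matrix markers 2 passed, Col3a1 (-2.13 ± 0.30, adjusted p = 0.00681) and Postn (-1.51 ± 0.27, adjusted p = 0.0287), with a median of -0.63. Of the 12 rod markers 1 passed, Gnat1 (-0.55 ± 0.09, adjusted p = 0.018), and 7 had an unadjusted p under 0.05 (median -0.33).

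The comparison of ages in the wild types asks how the tissue changes over the first year. Of the 35 members, 19 were higher at 1 year and 0 lower, where 7.28% of all genes were called higher and 5.09% lower. At an unadjusted p under 0.05 27 were higher, against 13.5% of all genes. The median difference was 0.83, against -0.03 for all genes, 33 were positive, against 44.6% of all genes, and all 1-year arrays lay above all 1-month arrays for 24, against 9.13% of all genes. Parp14 (1.09 ± 0.14, adjusted p = 0.000106), Ifitm3 (1.41 ± 0.20, adjusted p = 0.000343), Xaf1 (0.83 ± 0.12, adjusted p = 0.000415) and Bst2 (1.25 ± 0.19, adjusted p = 0.000667) had the smallest adjusted p, and Oas1a the largest called difference (1.73 ± 0.31). By role, 1 of 4 transcription factors rose (Irf1, 1.17 ± 0.28), as did 5 of 10 effectors, 1 of 3 RNA sensors (Ifih1, 0.93 ± 0.19), 1 of 2 genes of the modifier system (Usp18, 1.23), 3 of 4 membrane proteins, 0 of 3 nucleotide enzymes, all 3 of the ADP-ribosylation complex and 5 of 6 of the other proteins.

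The wild-type arrays of both ages show the separation. Parp14 was at -1.48, -1.42, -1.40 and -1.19 at 1 month and at 0.14, -0.36, -0.48 and -0.42 at 1 year. Irf1 was at 0.54, 0.99, 1.27 and 0.73 at 1 month and at 2.73, 1.95, 1.45 and 2.08 at 1 year. For both the ages were separate and 1-year replicate 1 was the highest array. Second probes of called genes were not always alike. In limma over all probes, the dimmer probes of Oas1a (1.31) and Lgals3bp (0.99) passed. Those of Irf1 (-0.11), Ifih1 (0.20), Xaf1 (0.24) and Dtx3l (0.28) did not. Oasl1 was at -2.23, -1.31, -0.98 and -1.94 at 1 month and at 1.61, -0.26, -2.04 and 0.38 at 1 year, so the ages overlapped, and its difference of 1.54 ± 0.66 did not pass (adjusted p = 0.15). Without 1-year replicate 1, 17 members were called in the wild types, and 17 of the 19 calls held in every fit without 1 of the 16 arrays, the exceptions being Ifi44 and Ifit1. On slide 1 alone 1 member was called (Irf9, not among the 19) and on slide 2 alone 9, of which Dhx58 and Rsad2 are not among the 19, with 2 arrays per group.

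In the mutants, 2 of the 35 members were higher at 1 year than at 1 month and 0 lower, where 3.76% of all genes were called higher and 2.92% lower. Irf1 rose by 1.05 ± 0.28 (adjusted p = 0.0350) and Parp14 by 0.77 ± 0.14 (adjusted p = 0.00332). In limma over all probes 1 of the 45 was called higher (Parp14), against 741 of all 49230. There the brighter Irf1 probe did not pass (adjusted p = 0.0616), and the dimmer was at 0.05. The median was 0.36, against -0.05 for all genes, 31 were positive, against 40.3% of all genes, and the ages were separate for 8, against 7.4% of all genes. Irf1 was at 1.10, 1.48, 0.97 and 1.65 in the 1-month mutants and at 2.18, 3.04, 2.22 and 1.96 in the 1-year mutants. Its ages were separate, with 1-year replicate 2 the highest. Bst2, at 0.05 ± 0.19 (adjusted p = 0.921), and Ifi44, at -0.03 ± 0.31 (adjusted p = 0.970), overlapped between the ages.

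This count moved with single arrays. The shares of all genes given above belong to the fit on all 16 arrays, and those of the fits below are not given here. Without 1-month mutant replicate 4, 12 members were higher with age in the mutants: Dhx58, Dtx3l, Eif2ak2, Ifi47, Ifit3, Irf1, Oas3, Oasl2, Parp14, Parp9, Rsad2 and Xaf1, with Rsad2 at 1.03 (adjusted p = 0.00653). Leaving out this array also changed the estimated spread. The standard error of Rsad2 went from 0.47 to 0.20, and that of Irf1 from 0.28 to 0.30. Without 1-year wild-type replicate 1, whose group enters only through the common estimate of the spread, 5 were called (Dtx3l, Eif2ak2, Irf1, Parp14 and Parp9). Without any 1 of replicates 1 to 3 of the mutants of either age, 1 was called (Parp14). The Irf1 call held in 10 of the 16 fits without 1 array and that of Parp14 in all 16. Without the 3 arrays whose sex-linked genes went against the label, 0 were called.

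**Figure D5:**
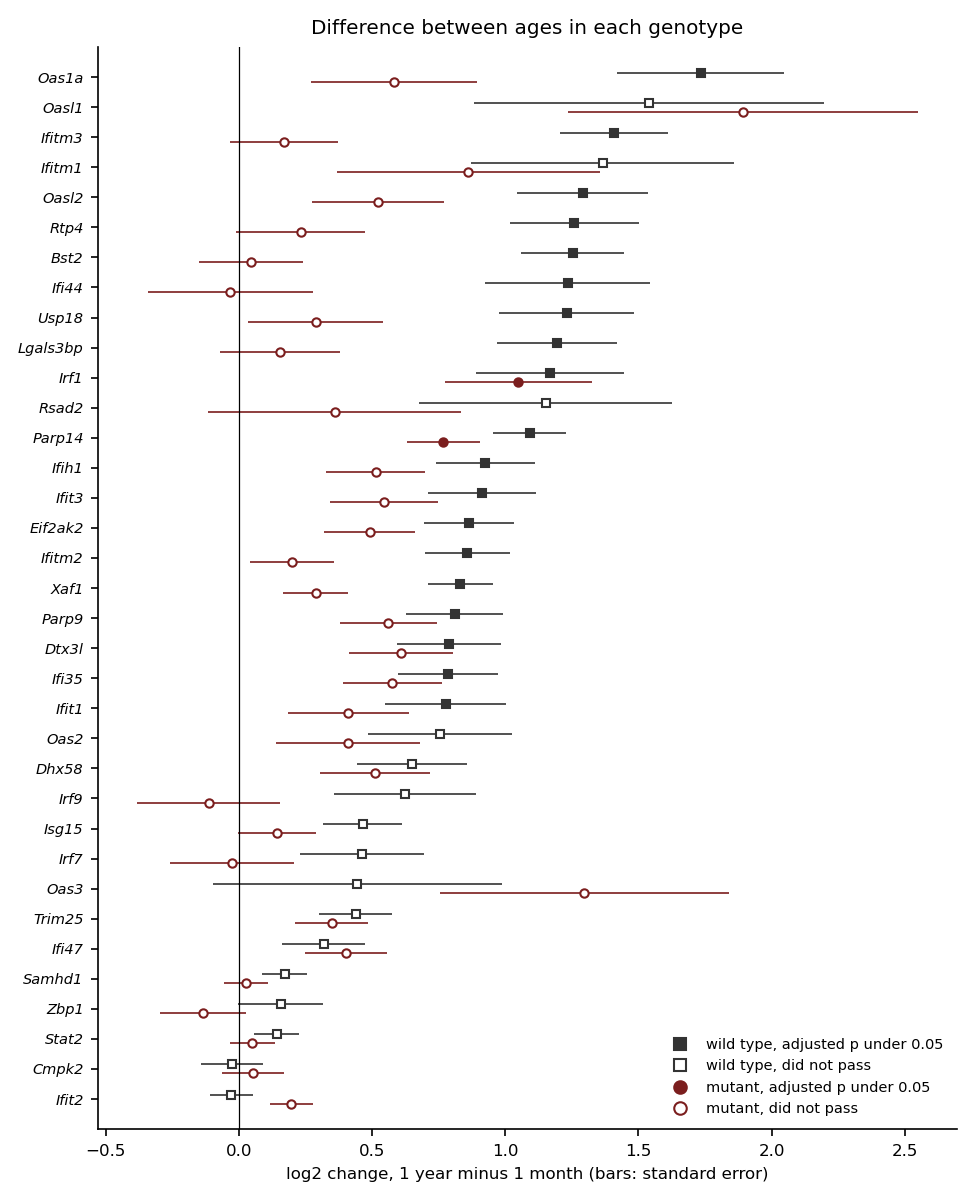
Log2 difference between 1 year and 1 month (horizontal axis) of each of the 35 members in wild types (black squares) and mutants (red circles), with standard errors as bars and filled symbols for members called at an adjusted p under 0.05. Of the wild-type symbols 19 are filled, and of the mutant symbols those of Irf1 and Parp14.

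The comparison of ages in the wild types and that of genotypes at 1 month share the 4 1-month wild-type arrays, so their differences are given side by side and not as separate support. Bst2 was higher by 1.38 in the 1-month mutants and by 1.25 in the 1-year wild types, Usp18 by 1.33 and 1.23, Rtp4 by 1.32 and 1.26, Oasl2 by 1.37 and 1.29, Xaf1 by 0.85 and 0.83, and Ifitm3 by 1.09 and 1.41. Relative to the mean of the 1-month wild types, the member median was 0.56, 0.43, 0.48 and 1.02 on the 1-month mutant arrays, 1.26, 0.70, 0.57 and 0.73 on the 1-year wild-type arrays, and 1.24, 1.42, 1.03 and 1.04 on the 1-year mutant arrays. The 1-month wild types lay between -0.10 and 0.06. Only 1-month mutant replicate 4 and 1-year wild-type replicate 1 came near or within the range of the 1-year mutants.

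Other immune lists also held genes called higher with age. Of all genes, 7.28% were called higher in the wild types and 3.76% in the mutants. In the wild types 15 of 16 MHC class I genes rose (median 1.34, B2m 1.69), as did 9 of 13 GTPases (median 0.93, Gbp2 1.84), 23 of 44 further interferon-stimulated genes, 12 of 18 microglia markers (median 1.03, Ctss 3.03 and Trem2 2.41), and 6 of 19 sensing genes, with Irf8 at 1.11 and Sting1 at 1.09. In the mutants the counts were 12 of 16, 3 of 13, 10 of 44, 10 of 18 and 3 of 19. The sensing list as a whole had a median of 0.13 in the wild types, with 13 of 19 positive. In the mutants its median was 0.01, with 11 of 19 positive. At an unadjusted p under 0.05, 6 of its genes were higher and 3 lower in the mutants. The microglia median relative to the 1-month wild types was 1.62, 0.86, 1.06 and 1.04 on the 1-year wild-type arrays and 0.47, 0.26, 0.56 and 0.43 on the 1-month mutant arrays. Replicate 1 of the 1-year wild types, highest for the antiviral genes, was also the highest of its group for microglia, whereas replicate 4 of the 1-month mutants was not. Of the other markers, 6 of 16 RPE and melanin genes, 4 of 11 neutrophil genes and 3 of 18 lymphocyte genes rose with age in the wild types, and Cd3d went from 0 to 4 of 4 arrays well above background. The medians of these 3 lists were 0.55, 0.34 and -0.11, and only 6 of the 18 lymphocyte genes had a positive difference. In the mutants 2 of 16 RPE and melanin genes fell with age (median -0.22). So did 5 of 12 rod markers (median -0.27) and 5 of 12 fibroblast and matrix markers (median -0.45), against 2.92% of all genes. No neutrophil, lymphocyte or erythrocyte gene was called there, and the erythrocyte median was -2.06. In the wild types 0 rod markers were called, while 2 fibroblast and matrix markers rose and 1 fell. What part these cells had in the antiviral levels was not tested.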

How the data were processed

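Each scanner file gives, per the file headers, a processed Cy3 intensity for every spot, from which Agilent Feature Extraction 11.0.1.1 had removed background and spatial trend. Median spot and background intensities and detection marks were also read. A deposited matrix held log2 values, whose normalization is not given in the sources used here and which served as an alternative.

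The processed intensity was log2 transformed, each array's 75th percentile was subtracted and spots of a probe were averaged. Accessions were matched to the RefSeq gene table (GRCm38.p6, for names only), which named 27235 probes by 1 gene each. The filter of at least 4 arrays well above background kept 49230 probes, and the brightest probe stood for a gene. One model with 4 group means over 16 arrays was fitted (limma 3.58.1, with statmod 1.5.0, in R 4.3.3). All gene p-values come from it. Code was tested on simulated data. Promoter letters come from RefSeq.

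The members and gene lists were chosen with earlier results of these data known. Values on every array are given for called members with the largest fold and for at least 1 member of each role, and lists are described by counts, their first 2 tested members and up to 4 called ones. Oasl1, Irf1, Isg15, Rsad2, Ifi35 and genes named for the ages or for the difference between effects were otherwise chosen after their values were seen. Alternatives were other background corrections (normexp with an offset of 50), normalizations, filters, probe rules, covariates, slides, a replicate block and leaving out arrays. The replicate numbers of different groups did not pair the samples: arrays of the same number had correlations of their deviations from -0.54 to 0.30. Row on the slide is not balanced over groups, with most mutant arrays in row 2 and most wild-type arrays in row 1. Items withheld for evaluation are not reported here.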

Additional observations from a re-analysis of the deposited data

Results flagged for a closer look

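In 10 of 144 sets of 4 arrays (each member, and the member median, in each group), or 6.94%, the highest or lowest array lay far from the other 3 relative to the range of the group. Chance alone marks about 1 in 20 such sets. Of the 10, 5 were high values of 1-year wild-type replicate 1: Ifit3 (1.80 against 1.15 on the next array), Oas1a (0.22 against -0.89), Eif2ak2 (-2.10 against -2.75), Usp18 (-0.70 against -1.59) and Rtp4 (1.24 against 0.31). Another 3 were high values of 1-month mutant replicate 4: Rsad2 (-0.40 against -3.00), Ifi44 (-2.54 against -3.76) and Trim25 (2.66 against 2.29). In 1-year mutant replicate 2, Parp9 was high (0.27 against -0.23) and Ifit2 low (-1.83 against -1.57).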

How the results depend on the processing

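No called member changed sign in any of them. With 11 members called between genotypes at 1 month, the count was 0 on slide 1 alone, 0 on slide 2 alone and 4 with only the groups compared, all fits with fewer arrays, and 7 to 11 without 1 array. The medians moved by less than the spread between arrays, from 0.44 to 0.68 without 1 array at 1 month and from 0.17 to 0.40 at 1 year. Against 10 of the 45 probes called at 1 month, the count of called probes was 0 on either slide alone or with only the groups compared, 6 with array row as a covariate, 6 with the replicate block, and 2 to 12 without 1 array. The count was 2 without mutant or wild-type replicate 1, 3 without wild-type replicate 3, 5 without wild-type replicate 2, and 6 without mutant replicate 3 or wild-type replicate 4. At 1 year 0 members and 0 probes were called throughout. Against 19 members called with age in the wild types, the count was 1 on slide 1 alone (Irf9, not among the 19) and 9 on slide 2 alone (Dhx58 and Rsad2 not among the 19), and 17 to 24 without 1 array. Against 2 in the mutants it was 0 on slide 1 alone, 0 without the 3 arrays not matching the label of male sex, 1 on slide 2 alone (Rsad2), and 1 (Parp14) with the replicate block, with the mean of a gene's probes, with only the groups compared and with the sex-linked pattern as a covariate, and 1 to 12 without 1 array. The difference between genotype effects gave 1 call (Bst2) without the 3 arrays not matching the label of male sex and with an intensity trend and robust variance, and 0 to 1 without 1 array. The cause of these changes was not tested. With the replicate block 10 members were called at 1 month and 19 with age in the wild types.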
